A study of Arabidopsis thaliana with 12 samples.

Results

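The MYB proteins are one of the largest families of transcription factors in plants. They bind DNA through imperfect repeats of a helix-turn-helix fold, and most plant members carry a pair of such repeats. In Arabidopsis thaliana, members switch on or hold back the genes of phenylpropanoid, lignin, suberin, cuticle and glucosinolate synthesis, act in responses to drought, cold and wounding, fix epidermal and stomatal cell fate, and, as the animal-like MYB3R subgroup, time the genes of cell division. Accessibility at and around these genes was examined in roots regrowing an excised tip, by ATAC-seq, an assay in which a transposase inserts adapters where DNA is open.

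Members were the genes that the authors' 2.5 h or 14 h table describes as a myb domain protein. That description matched 122 genes, and the rule sets aside AT5G57620, AT5G14750, AT5G17800 and AT1G79430. Since 3 of these 4 were among the 122, 119 genes remained. A region counted in all 4 groups lay nearest to 117 of the 119 genes, out of 28321 genes in all with such a region. The members own 418 of the 99054 regions that all 4 groups share, and 686 of 156035 when regions counted in some groups alone are added. MYB6 (AT4G09460) and MYB22 (AT5G40430) are the 2 members with no shared region. AtMYB103 below is AT1G63910; the same name also stands in the description of AT5G56110, called MYB80 here.

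The study set 3 groups of regenerating roots, taken 2.5 h, 14 h and 16 h after about 130 µm of the tip had been cut off, against uncut roots, with 3 libraries in each group. All plants were 7 days after sowing, and the 200 µm or so above the cut was collected. Regenerating roots carried a MP::MP-GFP transgene, in which the promoter and protein of the auxin response factor MONOPTEROS mark mainly vascular cells, and 1000 GFP-positive nuclei entered each library (2000 in 16 h replicate 3). Uncut roots were Col-0 without the transgene, sorted on the DNA stain DAPI, with 50000 nuclei per library. Every difference from uncut roots is therefore a difference of excision, plant line, sort and nuclei at once, and these cannot be told apart. The labels do not say that replicates are separate batches of plants, so each p-value speaks of the spread among 3 libraries, which may be technical.

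Libraries held 1.83 to 4.78 M reads in regions at 2.5 h, 10.7 to 17.3 M at 14 h, 1.44 to 2.35 M at 16 h and 22.5 to 31.8 M in uncut roots. The gene of the sorting marker, MP (AT1G19850), stood at 297, 360 and 225 CPM (reads scaled to the library sizes) at 2.5 h, 299, 282 and 292 CPM at 14 h, 334, 215 and 259 CPM at 16 h, and 103, 110 and 105 CPM in uncut roots. Its 9 regenerating libraries all lay above the uncut ones, and a contribution of transgene DNA was not tested. Of 10 vascular marker genes, none was called in a comparison with uncut roots, and their summed level of 521 to 642 CPM at 2.5 h, 569 to 630 CPM at 14 h and 623 to 655 CPM at 16 h stood beside 572 to 625 CPM in uncut roots. Of 6 endodermis and cortex markers, 2 (ESB1 and CO2) were called lower at both 14 h and 16 h. The 6 markers summed to 329 to 338 CPM at 2.5 h, 220 to 262 CPM at 14 h and 191 to 301 CPM at 16 h, against 343 to 373 CPM in uncut roots. Among 6 markers of leaf photosynthesis, LHCB1.1 and LHCB1.2 were called lower at 14 h and LHCB1.1 at 16 h, at summed levels of 329 to 438 CPM at 2.5 h, 271 to 317 CPM at 14 h, 305 to 328 CPM at 16 h and 368 to 397 CPM in uncut roots. GL2, of 6 markers of epidermis and root hair, was called lower at 14 h and FEZ, of 5 root cap markers, higher at 14 h. The epidermis list summed to 172 to 269 CPM at 2.5 h, 258 to 269 CPM at 14 h and 291 to 303 CPM at 16 h, all below the 310 to 331 CPM of uncut roots. The root cap list summed to 94.8 to 224 CPM at 2.5 h, 148 to 191 CPM at 14 h and 128 to 193 CPM at 16 h, against 160 to 173 CPM. No marker was at 0 in any group. Of all genes, 2.68% were called higher and 7.5% lower at 14 h, and 2.48% and 6.29% at 16 h. Each marker list is too short to be read against these shares. Whether the marker values reflect a shift in cell makeup was not tested, nor was the part of any such shift in the results below.

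Regions near MYB genes lay over exons more often, and over promoters less often, than regions at large, with no test made of it. Exons held 56.2% of the 418 member regions and 43.4% of all regions given to a gene, promoters held 11.5% and 21.1%, and the ends of genes (transcription termination sites, TTS) held 17.2% and 18.1%. Introns held 1.196% of member regions and 2.22% of all, and intergenic stretches 13.9% and 15.1%. Within 1 kb of a transcription start lay 41.4% of member regions against 46.6% of all regions. The median number of shared regions per gene was 3 both for members and for all genes, with a range among members of 1 to 17. The member at the top of that range, MYB121 (AT3G30210), owes 13 of its 17 regions to intergenic positions nearest to its start, and MYB93 (AT1G34670) owes 12 of 14. A gene's level below is the sum of its shared regions in CPM, so it grows with the number of regions given to the gene.

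The highest summed levels over the 4 groups belonged to MYB121 at 145 CPM, MYB10 (AT3G12820) at 106 CPM from 11 regions and MYB120 (AT5G55020) at 102 CPM from 7 regions. MYB90 (AT1G66390), MYB89 (AT5G39700) and MYB62 (AT1G68320), each with a single region, had the lowest summed levels, 4.66, 5.95 and 6.05 CPM. Per kb of region the order differed: MYB121 had 48.6 CPM per kb and MYB62 had 76.6 CPM per kb, against a median of 59.97 CPM per kb over the 117 members. A lower level in bulk nuclei may mean fewer open nuclei or less opening in each, and these cannot be told apart.

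As a family, the members took a larger share of the reads in regenerating than in uncut roots at 14 h and 16 h. Their regions held 0.429%, 0.427% and 0.430% of reads in shared regions at 14 h, 0.409%, 0.440% and 0.400% at 16 h, and 0.349%, 0.355% and 0.360% in uncut roots. The 2.5 h libraries, at 0.373%, 0.367% and 0.430%, also lay above the uncut ones, but replicates 1 and 2 by little. On the scaled counts the members summed to 3754, 3735 and 4334 CPM at 2.5 h, 4232, 4195 and 4237 CPM at 14 h, 4072, 4404 and 4009 CPM at 16 h, and 3815, 3808 and 3797 CPM in uncut roots. All libraries of the later times lay above the uncut range, whereas those of 2.5 h fell on both sides of it.

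**Figure D1:**
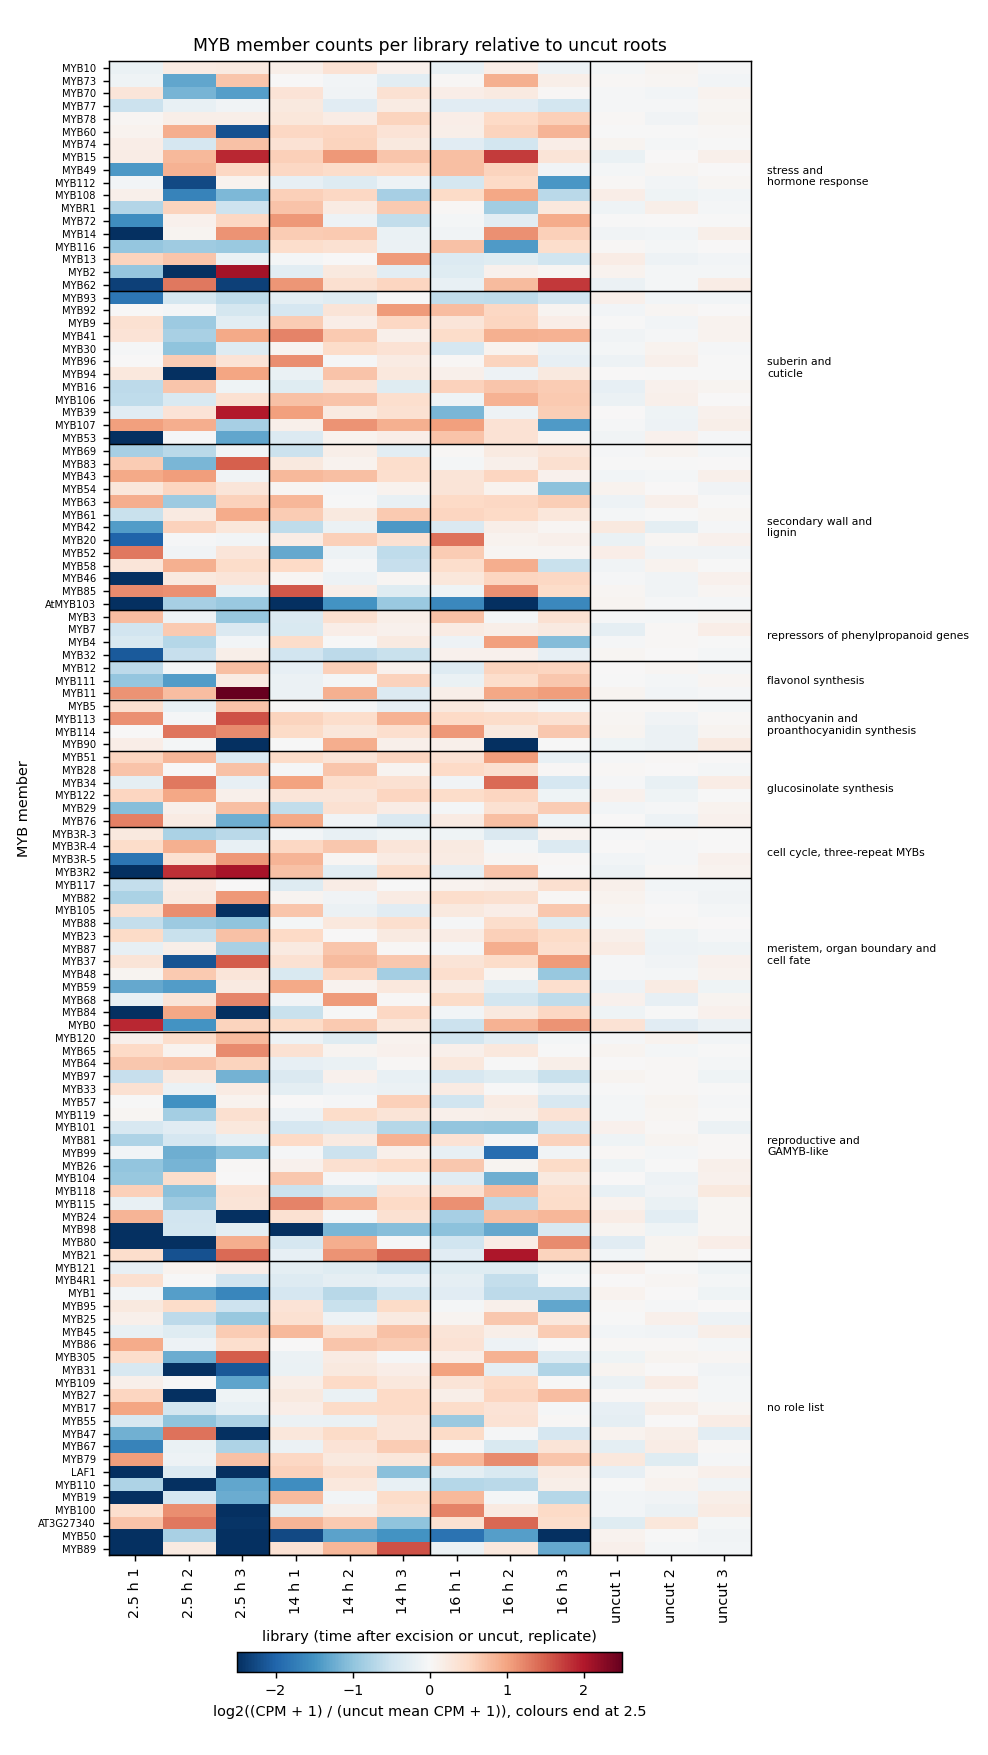
Level of the 117 MYB members in each of the 12 libraries, drawn as log2 of (CPM + 1) over (mean uncut CPM + 1), with members grouped by role and ordered by level within a role. Colours end at 2.5; red is above and blue below uncut roots. The 14 h and 16 h columns hold more red than blue, and the 2.5 h columns vary most from library to library.

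The shift was spread over many members. The median log2 fold change over members was 0.27 at 14 h and 0.27 at 16 h, while over all genes tested it was 0.03 and 0.02. At 14 h, 87 of 117 members had a positive log2 fold change (74.4%, against 53.1% of all genes), and at 16 h 82 of 117 did (70.1%, against 51.2%). At 2.5 h the members' median was 0.08 and that of all genes -0.06, with 64 of 117 members positive (54.7%, against 46.0%). Without 2.5 h replicate 3 the members' median was -0.11, with 54 of 117 positive (46.2%, as of all genes), so this excess rests on that library. The spread among replicates differed between groups: the median ratio of SD to mean across members was 0.527 at 2.5 h, 0.208 at 14 h, 0.247 at 16 h and 0.0676 in uncut roots. At 2.5 h, replicates 1, 2 and 3 had no read at 11, 5 and 11 members, 16 h replicate 2 had none at 1 member, and every other library had reads at all 117.

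**Figure D2:**
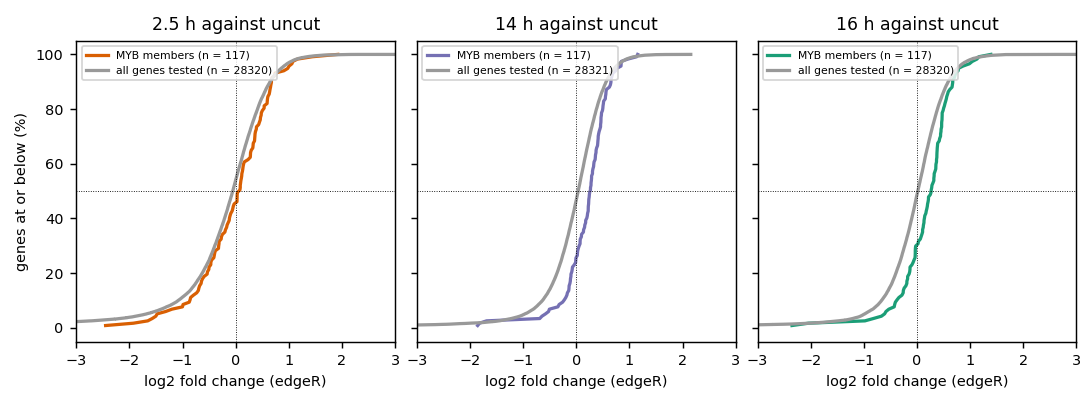
Share of genes (vertical axis, in percent) at or below each log2 fold change (horizontal axis) for MYB members (coloured) and for all genes tested (grey), in the comparisons of 2.5 h, 14 h and 16 h with uncut roots. The member curve lies to the right of the grey curve over most of its length, with medians of 0.27 at 14 h and at 16 h against 0.03 and 0.02 for all genes.

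How accessibility at MYB genes differed from uncut roots soon after excision was asked first. At 2.5 h no member was called: 0 of 117 were higher, where 0.00353% of all genes were, and 0 were lower, where 0.23% were (edgeR quasi-likelihood test, Benjamini-Hochberg adjusted p under 0.05). At an unadjusted p under 0.05 there were 5 members, where 2796 of 28320 genes in all had such a p. DESeq2 called 2 higher and 1 lower, against 3.62% and 4.51% of all genes. All 3 libraries lay above the uncut range for 8 members (7.39% of all genes) and below it for 16 (17.2% of all genes). The smallest p belonged to MYB64 (AT5G11050), which acts in the female gametophyte. It stood at 113, 117 and 105 CPM at 2.5 h, against 71.3, 72.7 and 68.9 CPM in uncut roots, which is 0.66 ± 0.15 (SE) on the log2 scale with an edgeR adjusted p of 0.155. The groups do not overlap and its replicates were close, unlike those of most members at this time. Of the 6 regions summed for MYB64, 1 is annotated to the gene itself and 0 lie within 1 kb of a start. Next were MYB11 (AT3G62610), an activator of flavonol synthesis, at 14.4, 11.1 and 44.8 CPM against 6.51, 5.83 and 6.01 CPM, and MYB88 (AT2G02820), which limits divisions of the stomatal lineage, at 20.9, 16.7 and 15.4 CPM against 31.1, 32.8 and 32.4 CPM. MYB11 rests on a single region and 2.5 h replicate 3 is far above the others. Leaving out any 2.5 h library gave 2 to 3 members higher and 2 to 5 lower, where 1.2% to 1.4% and 4.82% to 5.29% of all genes were. Leaving out any uncut library gave 0 members, and 0.0% of all genes in either direction.

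At 14 h, 7 of the 117 members were called higher than in uncut roots and 3 lower. Over all genes the calls ran the other way, with 2.68% of 28321 genes higher and 7.5% lower. All 3 libraries lay above the uncut range for 29 members (16.3% of all genes) and below it for 12 (19.7% of all genes). The members higher at 14 h were MYB15, MYB60, MYB43, MYB113, MYB3R-4, MYB115 and MYB45, at log2 fold changes of 0.47 to 0.97, and those lower were MYB50, MYB32 and MYB1. Summed over regions within 1 kb of a start, MYB60 and MYB15 were still called at 14 h and the other 5 higher genes, MYB1 and MYB32 were not, while MYB50 has no such region. Over such regions 1.1% of all genes were called higher and 3.98% lower. With total counts in place of TMM scaling, which shifts the median of all genes to 0.15, the split was 16 higher and 1 lower among members (6.33% and 6.01% of all genes). None of the 10 calls was kept when all 12 libraries were fitted together (0 and 0, against 0.0177% and 1.65% of all genes). Nor was any kept when any one uncut library was left out (0 and 0, against 0.0636% to 0.18% and 3.06% to 3.82% of all genes). DESeq2 called 18 higher and 6 lower (6.86% and 10.9% of all genes).

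At 16 h, 4 members were called higher and 4 lower of 117, against 2.48% and 6.29% of 28320 genes. All 3 libraries lay above the uncut range for 24 members (13.5% of all genes) and below it for 11 (18.4% of all genes). MYB15, MYB41, MYB16 and MYB79 were higher, at log2 fold changes of 0.66 to 1.16, and MYB50, AtMYB103, MYB101 and MYB93 were lower. Over regions within 1 kb of a start, MYB15 and MYB79 were still called at 16 h, MYB41, MYB16, MYB101 and MYB93 were not, and MYB50 and AtMYB103 have no such region. Of all genes, 2.28% were called higher and 4.6% lower over such regions. Total counts gave 6 higher and 3 lower (4.67% and 5.12% of all genes), with a median of 0.12 over all genes, and DESeq2 15 and 7 (8.71% and 10.2% of all genes). No call was kept in the fit of all 12 libraries, where 0.0247% of all genes were higher and 0.777% lower. Leaving out an uncut library left no call except those of MYB50 and AtMYB103, which held without uncut replicate 3. In those fits 0.0646% to 0.108% of all genes were higher and 2.11% to 2.63% lower. Both later times are set against the same uncut libraries, so that their calls share that side of the comparison.

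**Figure D3:**
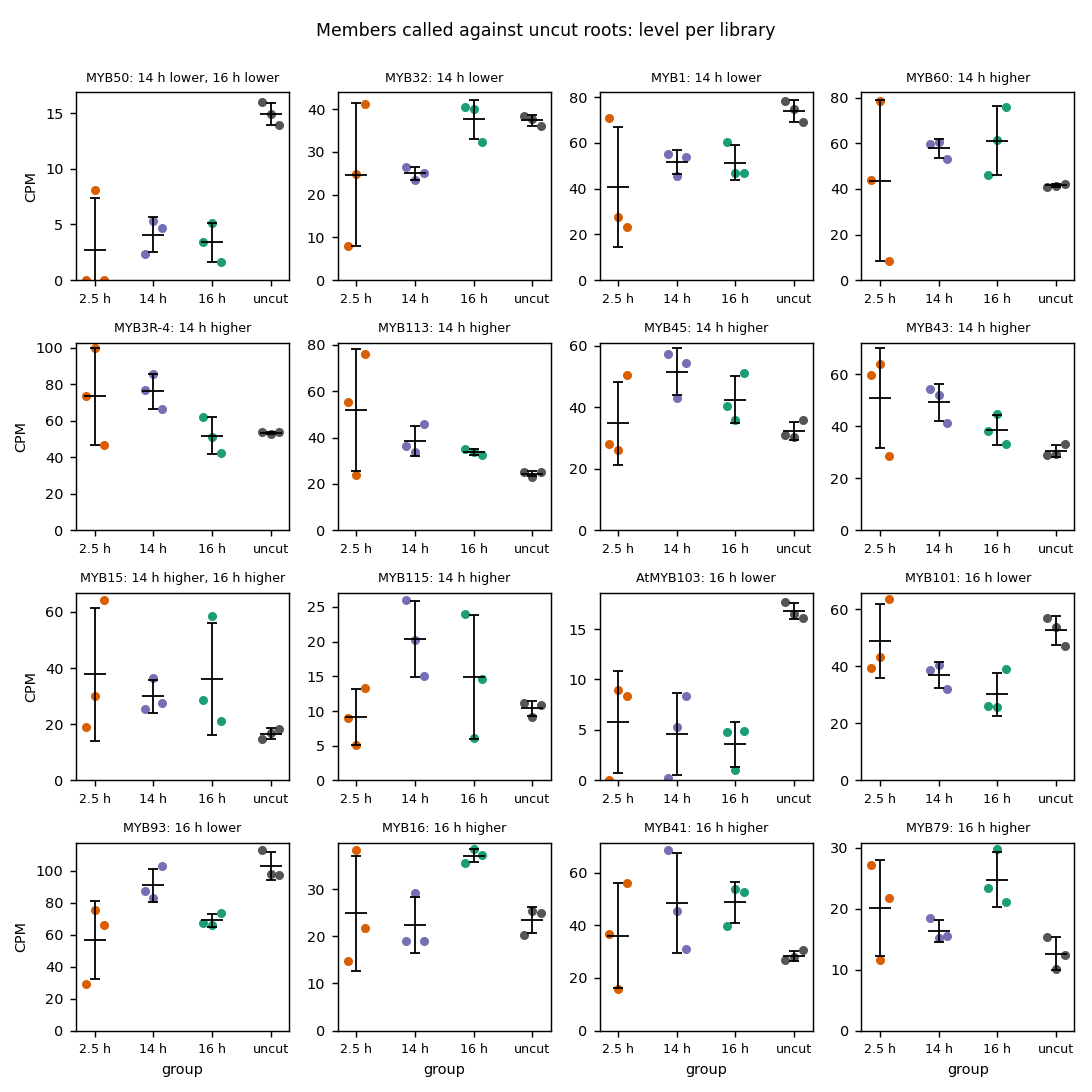
Summed level in CPM of the 16 members called in a comparison with uncut roots, with a point per library, a line at the mean and bars of 1 SD (n = 3 per group); the title of each panel gives the time and direction of the call. MYB15 lies above the uncut range in all 9 regenerating libraries, and MYB50 and AtMYB103 lie below it in all 9.

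Members of stress and hormone responses were led by MYB15 (AT3G23250), which acts in cold responses and in the lignin deposited during defence. Its level was 19.1, 29.9 and 64.3 CPM at 2.5 h, 25.6, 36.6 and 27.7 CPM at 14 h, 28.8, 58.5 and 21.0 CPM at 16 h, and 14.7, 16.9 and 18.5 CPM in uncut roots. It was the 1 member of 117 whose libraries lay above the uncut range at all 3 times (0.678% of all genes), against 3 members below it at all 3 (5.01%), though replicates at 2.5 h and 16 h were wide apart. The log2 fold change was 0.84 ± 0.20 at 14 h (edgeR adjusted p = 0.0332) and 1.16 ± 0.31 at 16 h (adjusted p = 0.0445), while the 1.16 ± 0.49 at 2.5 h did not pass (adjusted p = 0.518). Without 16 h replicate 2 the 16 h value was 0.59 and not called.

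MYB60 (AT1G08810), a regulator of stomatal opening in guard cells, had 59.6, 60.6 and 53.1 CPM at 14 h and 45.9, 61.6 and 76.1 CPM at 16 h, against 41.0, 41.4 and 42.2 CPM in uncut roots. The log2 fold change was 0.47 ± 0.12 at 14 h (edgeR adjusted p = 0.045) and 0.55 ± 0.18 at 16 h (adjusted p = 0.0866), so that the call was made at 14 h alone. Of 18 members in the stress and hormone list, 2 were called higher at 14 h and 1 at 16 h, none was called lower, and medians were 0.03, 0.33 and 0.21 at 2.5 h, 14 h and 16 h. MYB49 (AT5G54230) had 30.0, 28.6 and 29.5 CPM at 14 h against 19.9, 21.3 and 20.7 CPM in uncut roots, with no overlap and an edgeR adjusted p of 0.0763. MYB73 (AT4G37260), which was higher at 16 h than at 14 h in all libraries, is taken up with the comparison of times.

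Among the 12 members that act in suberin and cuticle synthesis, 2 rose and 1 fell at 16 h, where 2.48% and 6.29% of all genes did, and none was called at 14 h. These shares and those at 14 h (2.68% and 7.5%) are the background for each list, and a list of this size is too short to be read against them. MYB41 (AT4G28110), which can switch on suberin synthesis, had 68.7, 45.5 and 31.1 CPM at 14 h, 39.7, 53.9 and 52.6 CPM at 16 h, and 26.9, 28.1 and 30.6 CPM in uncut roots. Both later times lay above the uncut range. The log2 fold change was 0.76 ± 0.26 at 14 h (edgeR adjusted p = 0.0977) and 0.78 ± 0.17 at 16 h (adjusted p = 0.0215). MYB16 (AT5G15310), a MIXTA-like regulator of cuticle formation, had 35.6, 38.5 and 37.2 CPM at 16 h, against 20.4, 25.4 and 24.9 CPM in uncut roots, which is 0.66 ± 0.18 on the log2 scale (adjusted p = 0.0481). At 14 h it had 18.9, 29.2 and 18.9 CPM, which overlaps uncut roots. The call at 16 h was lost without any one of the 6 libraries.

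MYB93, which is expressed in the endodermis over lateral root primordia and restrains lateral root formation, had 67.2, 65.7 and 73.7 CPM at 16 h, against 113, 98.1 and 97.5 CPM in uncut roots. The log2 fold change was -0.58 ± 0.15 (edgeR adjusted p = 0.0338). Its 14 h libraries, at 87.0, 83.0 and 103 CPM, overlap the uncut ones. The direction depends on which regions are summed: over those within 1 kb of the start the 16 h value was 0.42, over those annotated to MYB93 itself 0.40, and neither was called. The list's medians were -0.03 at 2.5 h, 0.46 at 14 h and 0.37 at 16 h, with 9 of 12 members positive at both later times.

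Of 13 members tied to the secondary wall and lignin, MYB43 rose at 14 h and AtMYB103 fell at 16 h. MYB43 (AT5G16600), an activator of lignin genes, had 59.8, 64.1 and 28.7 CPM at 2.5 h, 54.6, 52.1 and 41.1 CPM at 14 h, 38.4, 44.7 and 33.2 CPM at 16 h, and 29.0, 29.4 and 33.3 CPM in uncut roots. The 14 h libraries all lay above the uncut ones, while 2.5 h replicate 3 fell below them, and the log2 fold change was 0.69 ± 0.16 (edgeR adjusted p = 0.0279). AtMYB103, which acts in the making of syringyl lignin, had 0, 8.97 and 8.39 CPM at 2.5 h, 0.257, 5.28 and 8.32 CPM at 14 h, 4.80, 1.03 and 4.86 CPM at 16 h, and 17.7, 16.5 and 16.1 CPM in uncut roots. None of the 9 regenerating libraries reached the uncut range. The log2 fold change was -2.35 ± 0.41 at 16 h (adjusted p = 0.00684) and -1.82 ± 0.70 at 14 h (adjusted p = 0.131), on 15 reads in all at 16 h and 149 at 14 h, against 1100 in uncut roots. Over the 2 groups' own shared regions, and over regions annotated to the gene itself, AtMYB103 was not called, and its smallest drop over the alternatives was -1.16 on the log2 scale. MYB46 (AT5G12870) and MYB83 (AT3G08500), the master switches of secondary wall formation, were not called at any time, with log2 fold changes of 0.47 ± 0.21 and 0.17 ± 0.17 at 16 h. MYB63 (AT1G79180), an activator of lignin genes, had 34.3, 34.9 and 37.2 CPM at 16 h, against 22.0, 26.2 and 23.8 CPM in uncut roots, with no overlap and no call (adjusted p = 0.0731). The list's medians were 0.39 at 2.5 h, 0.04 at 14 h and 0.36 at 16 h.

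The 4 repressors of phenylpropanoid genes gave a single call. MYB32 (AT4G34990) fell to 26.5, 23.4 and 25.05 CPM at 14 h, against 38.4, 37.6 and 36.0 CPM in uncut roots, which is -0.58 ± 0.15 on the log2 scale (edgeR adjusted p = 0.0389). At 16 h it had 40.4, 40.0 and 32.4 CPM, which overlaps uncut roots, and the difference between 16 h and 14 h, 0.59 ± 0.32, did not pass (adjusted p = 1). MYB3 (AT1G22640), MYB4 (AT4G38620) and MYB7 (AT2G16720), its close relatives, were not called at any time, and the 4 members' medians were -0.18, 0.04 and 0.22 at 2.5 h, 14 h and 16 h. With total counts, MYB32 was not called at 14 h.

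In the flavonoid branch, MYB113 (AT1G66370), an activator of anthocyanin synthesis, rose at 14 h. It had 55.4, 23.9 and 76.2 CPM at 2.5 h, 36.4, 33.6 and 45.8 CPM at 14 h, 34.9, 33.9 and 32.4 CPM at 16 h, and 25.3, 23.1 and 25.1 CPM in uncut roots. Both later times lay above the uncut range, with a difference of 0.66 ± 0.17 on the log2 scale at 14 h (edgeR adjusted p = 0.0404) and 0.46 ± 0.17 at 16 h (adjusted p = 0.115). MYB113 was highest at a region -1129 bp from its start, in an exon of another gene. That region had 18.1, 12.7 and 32.3 CPM at 14 h, against 14.3, 13.0 and 14.7 CPM in uncut roots. The 2 regions annotated to MYB113 itself both had a higher mean at 14 h. The 14 h call was lost without 14 h replicate 3, and over the regions annotated to MYB113. Its neighbour MYB114 (AT1G66380) had 26.8, 23.2 and 25.7 CPM at 14 h and 41.1, 22.6 and 30.8 CPM at 16 h, against 20.01, 16.9 and 19.9 CPM in uncut roots, also with no overlap but with no call. MYB90 is the other copy in the same gene cluster. These neighbours are known as closely related copies. Their sequences were not compared here and how reads that match several of them were counted is not given in the sources used here, so the split between them is uncertain. The flavonol activators MYB11, MYB12 (AT2G47460) and MYB111 (AT5G49330) were not called at any time, at medians of 0.12, 0.21 and 0.37. MYB5 (AT3G13540), which acts in the seed coat, was not called either, with a log2 fold change of 0.36 ± 0.27 at 2.5 h.

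The 6 activators of glucosinolate synthesis all had positive log2 fold changes at each of the 3 times, and none was called. Their medians were 0.48 at 2.5 h, 0.35 at 14 h and 0.37 at 16 h, beside -0.06, 0.03 and 0.02 over all genes. All 3 times share the uncut libraries, so that the signs are not independent. Nearest to a call was MYB51 (AT1G18570), which turns on indole glucosinolates, at 54.3, 49.95 and 58.1 CPM at 14 h against 38.8, 40.2 and 39.5 CPM in uncut roots, which is 0.46 ± 0.13 on the log2 scale (edgeR adjusted p = 0.0554). The other indole regulators had 34.8, 34.98 and 41.3 CPM (MYB122, AT1G74080) and 57.7, 38.1 and 37.2 CPM (MYB34, AT5G60890) at 14 h. Uncut roots had 30.2, 26.0 and 27.9 CPM at MYB122 and 27.9, 24.9 and 32.3 CPM at MYB34, again without overlap. The aliphatic regulators MYB28 (AT5G61420), MYB29 (AT5G07690) and MYB76 (AT5G07700) overlapped uncut roots at 14 h.

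Of 4 MYB3R members, which control genes of the transition into mitosis, MYB3R-4 (AT5G11510), the activator, rose at 14 h. It had 73.5, 99.9 and 46.9 CPM at 2.5 h, 76.8, 85.6 and 66.3 CPM at 14 h, 62.4, 51.3 and 42.1 CPM at 16 h, and 53.7, 52.5 and 53.7 CPM in uncut roots. At 14 h all its libraries lay above uncut roots, with a difference of 0.51 ± 0.13 on the log2 scale (edgeR adjusted p = 0.0395), and all 8 of its regions had a higher mean. At 16 h the value was -0.03 ± 0.16. The repressors MYB3R-3 (AT3G09370) and MYB3R-5 (AT5G02320) were not called, at -0.12 ± 0.11 and 0.43 ± 0.23 at 14 h, and neither was MYB3R2 (AT4G00540), whose 2.5 h libraries ranged from 0.258 to 51.1 CPM. Without 14 h replicate 2, and over regions near the start or annotated to the gene, MYB3R-4 was not called, and the lowest value was 0.13.

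Regulators of meristems, organ boundaries and cell fate gave no call among 12 members. Their medians were 0.30 at 2.5 h, 0.25 at 14 h and 0.30 at 16 h, and 10 of 12 were positive at each later time. MYB37 (AT5G23000), known as RAX1 and active in axillary meristem formation, had 22.1, 29.7 and 27.3 CPM at 14 h and 21.2, 23.6 and 36.4 CPM at 16 h, against 16.5, 15.7 and 18.3 CPM in uncut roots. Neither difference was called, at edgeR adjusted p-values of 0.0654 and 0.108, though neither group overlaps uncut roots. MYB23 (AT5G40330), a relative of WEREWOLF in epidermal fate, had a log2 fold change of 0.27 ± 0.20 at 14 h and 0.45 ± 0.20 at 16 h.

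Among 18 reproductive and GAMYB-like members, MYB115 rose at 14 h and MYB101 fell at 16 h. MYB115 (AT5G40360), a regulator in embryos and seeds, had 26.0, 20.3 and 14.98 CPM at 14 h, against 11.2, 9.16 and 10.8 CPM in uncut roots. All 3 libraries lay above uncut roots, and the call (log2 fold change 0.97 ± 0.26, edgeR adjusted p = 0.0465) was lost without 14 h replicate 2. At 16 h its libraries were scattered, at 24.0, 6.16 and 14.6 CPM. MYB101 (AT2G32460), which acts in pollen tubes, had 38.7, 40.5 and 31.9 CPM at 14 h, 26.0, 25.7 and 38.9 CPM at 16 h, and 56.8, 53.6 and 47.1 CPM in uncut roots. Both later times lay below the uncut range, at -0.51 ± 0.15 (adjusted p = 0.067) and -0.82 ± 0.20 (adjusted p = 0.0287), and the 16 h call was lost without 16 h replicate 1. MYB98 (AT4G18770), the regulator of synergid cells, lay below the uncut range in all 9 regenerating libraries, at 0, 10.7 and 12.6 CPM at 2.5 h, 0.772, 6.29 and 6.74 CPM at 14 h, 6.85, 5.65 and 11.3 CPM at 16 h, and 15.8, 13.9 and 15.5 CPM in uncut roots. It was not called, with edgeR adjusted p-values of 0.095 at 14 h and 0.0737 at 16 h; it was chosen after its values were seen.

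Members given no role list held the largest drop that was called at 14 h. MYB50 (AT1G57560) had 0, 8.11 and 0 CPM at 2.5 h, 2.32, 5.28 and 4.68 CPM at 14 h, 3.43, 5.13 and 1.62 CPM at 16 h, and 16.0, 14.9 and 13.9 CPM in uncut roots. All 9 regenerating libraries lay below the uncut ones, on 19, 119 and 17 reads at the 3 times. It rests on 1 region, an exon of MYB50 on chromosome 1 (chr1:21317591-21317933, TAIR10). The log2 fold change was -1.86 ± 0.34 at 14 h (edgeR adjusted p = 0.0111) and -2.04 ± 0.36 at 16 h (adjusted p = 0.00772).

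MYB1 (AT3G09230) fell at 14 h, with 55.1, 45.5 and 53.9 CPM against 78.3, 74.9 and 68.9 CPM in uncut roots and a difference of -0.52 ± 0.13 on the log2 scale (edgeR adjusted p = 0.0363). The 16 h value was -0.53 ± 0.16 with 60.3, 46.7 and 46.9 CPM, which also does not overlap uncut roots (adjusted p = 0.0636). MYB45 (AT3G48920) rose at 14 h, with 57.3, 42.9 and 54.3 CPM against 30.9, 30.3 and 35.7 CPM and a difference of 0.67 ± 0.16 on the log2 scale (adjusted p = 0.0303). MYB79 (AT4G13480) rose at 16 h, with 23.3, 29.8 and 21.0 CPM against 15.4, 10.1 and 12.4 CPM and a difference of 0.99 ± 0.25 on the log2 scale (adjusted p = 0.0392). The groups do not overlap in any of these calls. MYB1 was not called with total counts, the MYB45 call was lost without 14 h replicate 3, and the MYB79 call was lost without 16 h replicate 1 or 2.

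**Figure D4:**
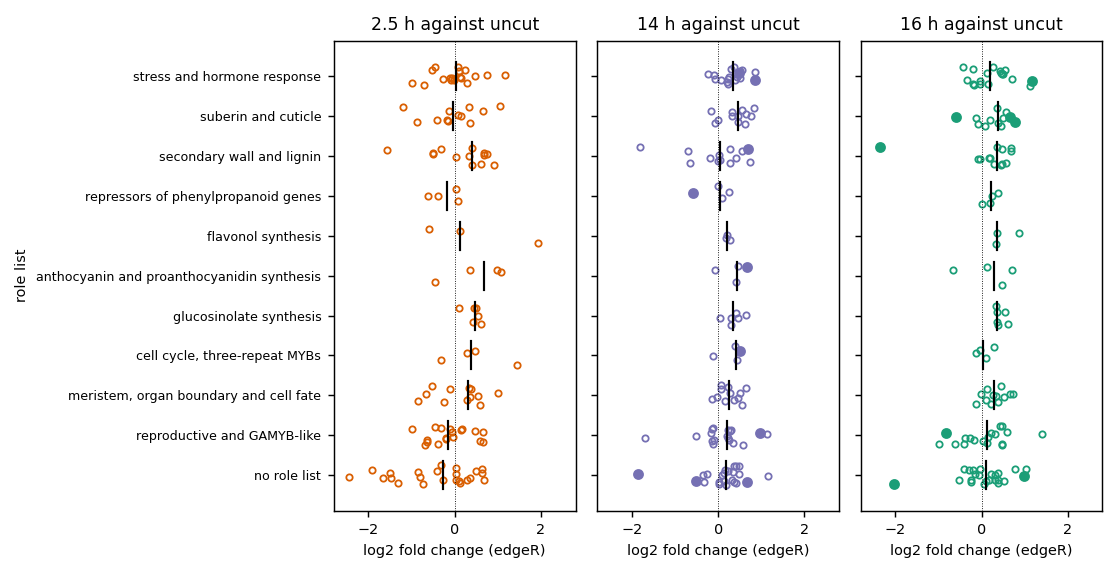
Log2 fold change of each MYB member against uncut roots at 2.5 h, 14 h and 16 h, in rows by role list, with a vertical line at the median of each list; filled points passed the edgeR threshold. No point is filled at 2.5 h, and all 6 glucosinolate regulators lie to the right of 0 at all 3 times.

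Taking both later times together, 10 members lay above the uncut range in all 6 libraries (5.16% of all genes did), namely MYB9, MYB15, MYB37, MYB41, MYB45, MYB60, MYB61, MYB78, MYB113 and MYB114. Below it in all 6 were 6 members (10.8% of all genes), MYB1, MYB50, MYB98, MYB101, AtMYB103 and MYB121. MYB9 (AT5G16770), an activator of suberin genes, had 61.9, 44.7 and 57.1 CPM at 14 h and 49.3, 58.0 and 44.5 CPM at 16 h, against 39.3, 37.5 and 41.9 CPM in uncut roots. MYB61 (AT1G09540), which acts in wall and mucilage synthesis and in stomata, had 32.3, 24.4 and 32.7 CPM at 14 h and 30.2, 29.3 and 25.1 CPM at 16 h, against 19.7, 20.4 and 21.2 CPM. Neither MYB9 nor MYB61 was called at any time. MYB121, the member with most regions, had 134, 128 and 112 CPM at 14 h and 129, 128 and 146 CPM at 16 h, against 171, 158 and 148 CPM, and was not called.

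Whether MYB genes differed between times, within 1 plant line and sort, was asked next, and no member was called. For 14 h against 2.5 h, 0 of 117 were higher and 0 lower, as for 0.0% and 0.0% of 27981 genes. There 3 members had an unadjusted p under 0.05 (1442 of all genes), with 0 higher and 1 lower by DESeq2 (0.885% and 0.863% of all genes). For 16 h against 2.5 h it was 0 and 0 of 112, as for 0.0% and 0.0% of 26799 genes. There 1 member had an unadjusted p under 0.05 (962 of all genes), with 0 and 0 by DESeq2 (0.37% and 0.149%). For 16 h against 14 h it was 0 and 0 of 117, against 0.00714% and 0.0% of 28025 genes. There 5 members had an unadjusted p under 0.05 (1221 of all genes), with 0 and 0 by DESeq2 (0.00354% and 0.0%). The median log2 fold change of members was 0.18 for 14 h against 2.5 h, 0.17 for 16 h against 2.5 h and -0.01 for 16 h against 14 h, and that of all genes was 0.04, 0.03 and 0.00.

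Members whose libraries did not overlap between times were few. All 3 libraries of 14 h lay above those of 2.5 h for 17 members (9.64% of all genes) and below them for 5 (5.49%). All libraries of 16 h lay above those of 2.5 h for 9 members (8.37%) and below them for 4 (4.64%), and above those of 14 h for 7 (4.77%) and below them for 5 (5.24%). MYB64 had 61.3, 63.5 and 72.3 CPM at 14 h, against 113, 117 and 105 CPM at 2.5 h, the smallest p of its comparison (log2 fold change -0.77 ± 0.25, edgeR adjusted p = 0.82). MYB120, a relative of MYB101 in pollen tubes, had 70.6, 81.1 and 93.9 CPM at 16 h, against 107, 133 and 171 CPM at 2.5 h (-0.74 ± 0.30). Next to MYB120 were MYB31 (AT1G74650) at 1.72 ± 0.83, MYB26 (AT3G13890), which acts in anther opening, at 1.09 ± 0.55, and MYB69 (AT4G33450) at 0.68 ± 0.36. Between the late times, MYB16 had 35.6, 38.5 and 37.2 CPM at 16 h, against 18.9, 29.2 and 18.9 CPM at 14 h (0.73 ± 0.34). MYB73, a repressor in stress responses, had 95.2, 173 and 103 CPM at 16 h, against 94.2, 89.0 and 78.2 CPM at 14 h (0.51 ± 0.24). MYB3R-4 was lower at 16 h than at 14 h by -0.55 ± 0.25, and so was MYB89 by -1.40 ± 0.67, neither called. Of these directions 5 reverse with the regions summed: within 1 kb of a start MYB3R-4 had 0.25, MYB120 0.22 and MYB69 -0.51, and over regions annotated to the gene MYB73 had -0.24 and MYB64 0.24.

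Within called genes the difference was not spread evenly over the regions. At MYB15 all 3 regions lie in its exons and all had a higher mean at 14 h and 16 h. The largest ratio was 902 bp downstream of the start (chr3:8310051-8310174, TAIR10), at 13.6 ± 5.69 CPM at 14 h and 14.1 ± 9.57 CPM at 16 h, against 5.23 ± 1.01 CPM in uncut roots (mean ± SD, n = 3). MYB41 was highest at a region 1041 bp from its start that is annotated as the TTS of another gene (chr4:13968258-13968693), with 26.0, 30.8 and 40.5 CPM at 16 h, against 17.5, 18.2 and 19.1 CPM in uncut roots. MYB101 was lowest at 16 h relative to uncut roots in an exon 176 bp from its start (chr2:13784193-13784397), with 6.85, 10.3 and 7.28 CPM against 24.3, 18.1 and 13.7 CPM. At MYB16 the exon 1233 bp downstream (chr5:4975746-4976062) had 17.8, 26.7 and 25.1 CPM at 16 h, against 11.7, 14.2 and 13.6 CPM in uncut roots.

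Some calls rest on regions outside the gene. At MYB45, 1 of 4 regions is annotated to the gene itself and its mean was lower, 4.72 CPM at 14 h against 5.91 CPM in uncut roots. The rise lay 1151 bp from the start at the TTS of the next gene (chr3:18140228-18140419), with 18.1, 16.6 and 20.3 CPM at 14 h against 5.85, 7.62 and 7.13 CPM, and in an intergenic region at -1216 bp (chr3:18137838-18138075), with 21.0, 16.0 and 17.0 CPM against 8.93, 8.58 and 11.9 CPM. Summed over the region annotated to MYB45, the log2 fold change was -0.34 and not called. At MYB43 the largest ratio was in an intergenic region at -1594 bp from the start (chr5:5436533-5436610), with 19.2, 11.7 and 4.84 CPM at 14 h against 4.95, 4.58 and 4.20 CPM. For MYB60, 4 of 6 regions lie over exons of a neighbouring gene, and the 2 within MYB60 both had a higher mean at 14 h.

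At MYB93 the lower level came from the flanks. Of its 14 regions, 11 had a lower mean at 16 h than in uncut roots, and 2 of the 3 with a higher mean were the pair annotated to MYB93 itself. An intergenic region at -7953 bp (chr1:12701035-12701240) had no read in any 16 h library, against 9.05, 8.77 and 9.31 CPM in uncut roots. A further 4 regions between 10259 and 13706 bp downstream, from chr1:12719299-12719400 to chr1:12722719-12722873, had no read in any of the 9 regenerating libraries and 376, 292, 240 and 588 reads in uncut roots. They were picked out after their values were seen, and are all such regions of the family: 4 of 418 member regions (0.957%) were unread in all 9, against 1.56% of all 99054 regions. In uncut roots, whose libraries are the deepest, 0 of the 418 and 0 of all 99054 shared regions were unread. A full absence of reads could therefore be seen only in regenerating roots. At AtMYB103 a region 2064 bp from the start, annotated as the TTS of the neighbouring gene (chr1:23719665-23719756) had no read at 16 h in 3 libraries, against 4.88, 4.96 and 4.84 CPM in uncut roots, and all 3 of its regions had a lower mean. A count of 0 allows up to 3 reads, which is 2.06, 1.54 and 2.43 CPM in 16 h replicates 1, 2 and 3, counting error only.

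**Figure D5:**
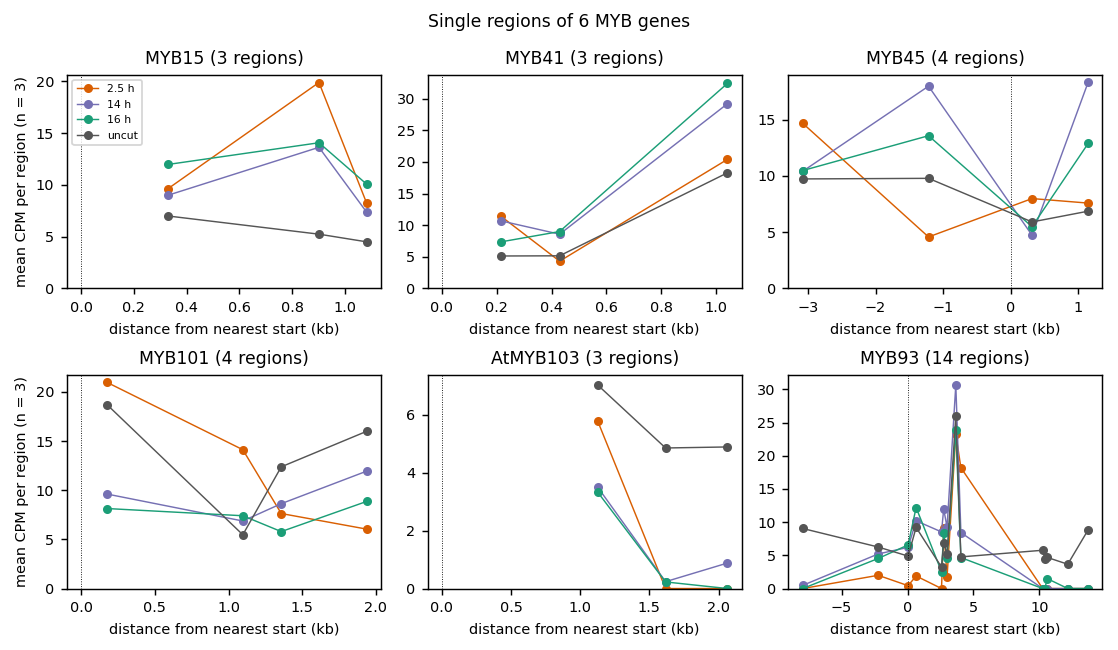
Mean CPM (n = 3 libraries) of each region of 6 called members by its distance from the nearest start in kb, for 2.5 h, 14 h, 16 h and uncut roots. At MYB15 the 3 regenerating lines lie above the uncut line at every region, and at MYB93 they lie at or near 0 in the regions beyond 10 kb from the start, where the uncut line does not.

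By chromosome, the lower calls of members lay on chromosomes 1 (MYB50, AtMYB103 and MYB93), 2 (MYB101), 3 (MYB1) and 4 (MYB32), with none on chromosome 5, which holds 33 of the 117 members tested. Over all genes, lower calls at 14 h made up 9.58% on chromosome 1, 9.41% on chromosome 2, 5.20% on chromosome 3, 10.3% on chromosome 4 and 3.92% on chromosome 5. At 16 h, when AtMYB103, MYB93 and MYB101 were called, the shares of all genes called lower were 8.09%, 8.22%, 3.62%, 9.83% and 2.83% on chromosomes 1 to 5. The higher calls at 14 h lay on chromosomes 1, 3 and 5, and those at 16 h on chromosomes 3, 4 and 5. Of all genes, 2.14% to 3.498% per chromosome were called higher at 14 h and 2.33% to 2.69% at 16 h. The plant line differed between regenerating and uncut roots, and its part in this pattern was not tested.

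In the authors' deposited tables, which test single regions rather than genes, member regions were more often higher and less often lower than regions at large at 14 h. The authors' deposited table for 14 h gave an adjusted p under 0.05 to 158 of 615 member regions as higher (25.7%, against 19.9% of all regions) and to 36 as lower (5.85%, against 14.5%). In the authors' deposited table for 2.5 h it was 18 higher and 23 lower of 485 (3.71% and 4.74%, against 2.81% and 7.72%). For 16 h, the authors' deposited table gave 40 higher and 17 lower of 456 (8.77% and 3.73%, against 7.59% and 9.84%). The 14 h and 2.5 h shares include regions that were not in the uncut set. Such regions entered through the regenerating group, so the shares called higher there may follow in part from the choice of regions. The 16 h table covers the same set of regions as uncut roots. These counts come from the same libraries as the gene tests, and no test was made of the difference between members and other regions.

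The genes that MYB proteins act with or on were mostly not called. None of 4 bHLH and WD40 partners, 6 glucosinolate enzymes, 4 suberin enzymes and 5 mitotic genes under MYB3R control passed the test against uncut roots. Medians at 14 h and 16 h were 0.08 and 0.16 for the bHLH and WD40 partners, -0.04 and -0.01 for the glucosinolate enzymes, -0.28 and -0.02 for the suberin enzymes and -0.07 and -0.09 for the mitotic genes. Of 7 lignin and wall enzymes counted, 4CL1 (AT1G51680), which activates hydroxycinnamic acids, fell at both later times. It had 33.7, 40.9 and 48.7 CPM at 14 h, 50.02, 34.4 and 48.6 CPM at 16 h, and 87.3, 80.4 and 78.1 CPM in uncut roots, with log2 fold changes of -0.99 ± 0.15 (edgeR adjusted p = 0.00462) and -0.90 ± 0.17 (adjusted p = 0.0109). The lignin and wall enzymes had medians of -0.27 and -0.16. Of 7 flavonoid enzymes, CHS (AT5G13930), the first committed step of flavonoid synthesis, fell at 16 h, with 56.2, 55.4 and 59.1 CPM against 127, 118 and 109 CPM and a difference of -1.05 ± 0.15 on the log2 scale (adjusted p = 0.00163). The other 6 were not called, and the list's medians were 0.06 at 14 h and 0.12 at 16 h.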

How the data were processed

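ATAC-seq libraries of 4 groups of 3 were analysed. Each library's file gives whole read counts for a set of regions, which the authors deposited without normalization. Per the file headers, the authors' deposited tables list for each region its log2 fold change, raw and adjusted p-values, annotation and distance in bp to the closest start. The submitters' processing notes name Bowtie2, SAMtools, MACS2, DESeq2, HOMER and TAIR10 without versions. How duplicates were handled is not given in the sources used here. Values per library in those tables (18 columns) were not used, and 3 of their lines came empty.

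Of 156035 regions, 140174 took their gene from the authors' 14 h, then 2.5 h table, 8150 from an overlapping region and 6491 from one within 500 bp, and 1220 had none. The gene columns of the 16 h table do not match its locations and were not used. Members, 10 role lists, partner lists and 5 marker lists were chosen with earlier results of these data known. Counts were summed per gene over regions shared by all groups and 6 comparisons were tested by edgeR 4.0.16 in R 4.3.3, with TMM factors over 12 libraries, filterByExpr, quasi-likelihood F tests, and p-values adjusted over all genes by Benjamini-Hochberg, called under 0.05. A standard error is the log2 fold change divided by the square root of F. Levels are CPM on TMM-scaled sizes. Single regions were not tested. The procedure was tested on simulated data in which both groups of a comparison had the same dispersion (spread beyond counting error) per gene. That simulation does not speak of groups that differ in spread. Limits on a count of 0 (3 reads) cover counting error only, and copies made by PCR are not independent.

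Named genes were MP, called members, the 4 smallest p-values in comparisons with fewer than 4 calls, up to 3 per role list, the 3 highest and lowest levels and called partners. Named regions of called members were the highest and, above 2 CPM, the largest ratio. MYB7, MYB9, MYB28, MYB29, MYB46, MYB61, MYB76, MYB78, MYB83, MYB98 and MYB3R-3 were added after their values were seen. Alternatives were DESeq2 1.42.0, its size factors, total counts, no filter, a replicate block, all 12 libraries in 1 fit, regions shared by the 2 groups, regions within 1 kb of a start and each library left out; regions annotated to the gene itself were added after the data had been seen.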

Additional observations from a re-analysis of the deposited data

Results flagged for a closer look

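MYB6 (AT4G09460), an R2R3 member, and MYB22 (AT5G40430) entered none of the main gene tests, since their regions at 14 h were bounded differently from those of the other groups. In the alternative over regions shared by the 2 groups compared, all 119 members were tested at 2.5 h and at 16 h against uncut roots. At MYB6, 1 region counted at 2.5 h and not in uncut roots held 93 reads (40, 36 and 17), and 4 regions counted at 14 h held 1812 reads. MYB22 had 186 reads (61, 39 and 86) at 1 region counted at 14 h. Overlapping regions with other bounds were counted in uncut roots at both genes, except at the MYB6 regions at -588 and -674 bp from the start. There the authors' deposited table for 2.5 h gave a log2 fold change of 3.51 at chr4:5992299-5992341 (adjusted p = 0.000167), and the authors' deposited table for 14 h gave 3.497 at chr4:5992206-5992262 (adjusted p = 4.5e-11). The direction of the authors' fold changes is as in their tables, and the uncut reads behind them were not analysed here. Both regions were picked as counted at a regenerating time with no overlapping region in uncut roots. A high positive value is expected from that choice alone, so these values are no separate support for a rise at MYB6.

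MYB81 (AT2G26960), a GAMYB-like member, lay on opposite sides of uncut roots at 14 h and 2.5 h, and neither difference from uncut roots passed. Against uncut roots its log2 fold change was 0.57 ± 0.18 at 14 h (edgeR adjusted p = 0.079) and -0.47 ± 0.27 at 2.5 h (adjusted p = 0.683). It averaged 55.3 CPM at 14 h and 27.2 CPM at 2.5 h, with no overlap with uncut roots at either time. It had 53.4, 43.7 and 68.9 CPM at 14 h, 21.7, 27.8 and 32.2 CPM at 2.5 h, and 34.8, 39.3 and 38.3 CPM in uncut roots. The difference between the times was tested and not called, at a log2 fold change of 1.03 ± 0.38 for 14 h against 2.5 h (adjusted p = 0.886 by edgeR).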

How the results depend on the processing

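Counts of called members depend on the setting. DESeq2 called 2 higher and 1 lower at 2.5 h (3.62% and 4.51% of all genes). At 14 h it called 18 higher and 6 lower (6.86% and 10.9%), and at 16 h 15 higher and 7 lower (8.71% and 10.2%). For 14 h against 2.5 h it called 1 lower (0.863%). Total counts gave 16 and 1 at 14 h (6.33% and 6.01%). A single fit of all 12 libraries gave 0 and 0 at both later times (0.0177% and 1.65% of all genes at 14 h, 0.0247% and 0.777% at 16 h). Regions shared by the 2 groups gave 7 and 2 of 119 members at 16 h (3.4% and 6.09% of all genes). Regions within 1 kb of a start gave 2 and 0 of 100 members at 14 h (1.1% and 3.98% of all genes) and 2 and 0 at 16 h (2.28% and 4.6%). Regions annotated to the gene itself gave 1 higher and 2 lower of 106 members at 14 h (1.16% and 4.35% of all genes) and also at 16 h (1.71% and 4.45%). A replicate block gave 3 higher and 3 lower at 14 h (1.4% and 7.68% of all genes), and 0 higher and 2 lower at 16 h (0.71% and 5.06%). At 2.5 h the block gave a member median of -0.15 with 45 of 117 positive (38.5%), beside -0.28 and 33.1% over all genes. Same-numbered libraries did not deviate together, with correlations of -0.0566 to 0.00838 and the own number highest in 2 of 18. No pairing by number was seen. Low counts lower such correlations, so whether same-numbered libraries share a batch stays undecided. Leaving out 1 library gave 0 to 3 higher and 0 to 5 lower at 2.5 h, 0 to 19 and 0 to 6 at 14 h, 0 to 11 and 0 to 6 at 16 h, and 0 to 0 between times. Against uncut roots, the 0 come from leaving out an uncut library, and the 19 and the 11 from leaving out replicate 1 of 14 h and of 16 h. DESeq2's size factors within edgeR and no filter left the member counts at 7 and 3 at 14 h and 4 and 4 at 16 h. Of all genes, 2.68% to 2.77% were higher and 7.47% to 7.5% lower at 14 h with these settings. At 16 h 2.48% to 2.9% were higher and 5.94% to 6.29% lower.

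Some log2 fold changes of named members changed sign with the regions summed. Within 1 kb of a start they were 0.42 for MYB93 at 16 h, -0.27 for MYB5 at 2.5 h, -0.31 for MYB45 at 14 h, -0.38 for MYB111 at 16 h, -0.51 for MYB69 at 16 h against 2.5 h, 0.25 for MYB3R-4 at 16 h against 14 h, and 0.13 and 0.22 for MYB120 at 14 h and at 16 h against 2.5 h. Over regions annotated to the gene itself they were 0.40 for MYB93, -0.29 for MYB5, -0.34 for MYB45, -0.24 for MYB73 at 16 h against 14 h and 0.24 for MYB64 at 14 h against 2.5 h. Of the other values of named genes under these alternatives, 582 kept direction and side of the threshold, 118 lost the call and 29 gained one. The 582 include values called neither in the main test nor in the alternative, so they do not measure how stable the calls are. Only values called in the main test could lose a call. Such calls were kept in 5 of 15 alternatives (MYB16 at 16 h) to 11 of 14 (MYB50 at 16 h). The causes of these changes were not tested. Levels at 2.5 h and 16 h are limited by 1.44 to 4.78 M reads per library.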
